A study of Rattus norvegicus with 9 samples.

Results

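Eph receptors and ephrins are the cell-surface receptors and ligands that lay out the map of the retina in the brain, and 10 of their genes were followed here in rat retinal ganglion cells: the ephrins Efna5 and Efnb2 and the receptors Epha3, Epha4, Epha5, Epha6, Epha7, Ephb1, Ephb2 and Ephb3. A member was any transcript cluster, the unit the array reports, that the platform annotation pairs with exactly 1 of these symbols. Each of the 10 symbols had 1 such cluster, so 10 of the 36685 clusters were members. The study put Set-β, a histone chaperone and inhibitor of protein phosphatase 2A, into these neurons, and its comparisons ask how either form of the protein alters gene expression.

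The cells of all groups came from postnatal day 4 Sprague Dawley rats and were purified on antibody-coated dishes and electroporated together with the plasmid pMAX-GFP. The myr_Set group received myr-Set-β, the wt_Set group wild-type Set-β, and the control group mCherry, a red fluorescent protein. GFP-positive cells were sorted the next day, kept on laminin, and their RNA was taken 3 days after transfection. There were 3 arrays in each group, 9 in all. The labels call them biological replicates and do not say whether each came from its own litter or culture, so a p-value here sets a difference against array-to-array spread that may be technical only. The cells were in culture, away from their targets in the brain.

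In retinal mapping, a growing axon carries Eph receptors that read ephrins on other cells, and usually turns away where the signal is strong. EphA receptors and ephrin-A ligands are known for ordering the nasal to temporal axis, and EphB receptors and ephrin-B ligands for the dorsal to ventral axis. Eph receptors are tyrosine kinases. Ephrin-A ligands are held in the membrane by a lipid anchor and ephrin-B ligands span it, and both can also signal back into the cell that bears them.

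RefSeq (build GRCr8) gave a window of 300 bases around the gene start for 9 of the 10 members, all but Epha4. The windows of Efna5, Efnb2 and Epha5 are shown because these genes had the largest differences described below. Efna5 lies at chr9:110042138-110042437 on the minus strand, Efnb2 at chr16:87484965-87485264 on the plus strand and Epha5 at chr14:24007872-24008171 on the plus strand. Capitals mark matches to the motifs named after the sequences, which run 5′ to 3′.
Efna5: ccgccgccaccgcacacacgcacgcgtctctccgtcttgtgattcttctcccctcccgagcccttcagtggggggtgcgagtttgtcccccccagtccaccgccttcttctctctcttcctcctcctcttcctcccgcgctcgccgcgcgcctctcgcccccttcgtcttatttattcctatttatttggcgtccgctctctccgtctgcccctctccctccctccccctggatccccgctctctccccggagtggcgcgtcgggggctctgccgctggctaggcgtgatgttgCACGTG
Efnb2: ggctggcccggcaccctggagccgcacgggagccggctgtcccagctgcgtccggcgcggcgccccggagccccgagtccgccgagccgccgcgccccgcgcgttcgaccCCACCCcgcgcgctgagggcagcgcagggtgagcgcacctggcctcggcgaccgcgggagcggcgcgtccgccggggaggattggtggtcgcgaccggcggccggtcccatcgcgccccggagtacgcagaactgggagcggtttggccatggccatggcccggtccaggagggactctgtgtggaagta
Epha5: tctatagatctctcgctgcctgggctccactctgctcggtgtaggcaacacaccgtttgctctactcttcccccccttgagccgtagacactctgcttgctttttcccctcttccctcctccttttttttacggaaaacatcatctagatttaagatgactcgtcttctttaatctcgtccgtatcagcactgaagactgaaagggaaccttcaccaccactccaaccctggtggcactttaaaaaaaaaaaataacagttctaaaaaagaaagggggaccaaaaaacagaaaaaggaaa

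The motifs searched on both strands were the GC box GGGCGG, the CACCC box CCACCC, which is bound by Krüppel-like factors, the TATA box TATAAA, the cAMP response element TGACGTCA and the E-box CACGTG, each counted also where it overlaps another. Efna5 held an E-box at the end of its window, Efnb2 a CACCC box, and Epha5 none of the 5. A GC box was present in 3 of the 9 windows, those of Epha6, Epha7 and Ephb3, against 33.1% of all 33469 windows in the table. A CACCC box was present in 3 of the 9, those of Efnb2, Ephb1 and Ephb3, against 29.4%. The E-box of Efna5 was the only match to that motif among the 9, against 6.42% of all windows. None of the 9 held the TATA box (14.2% of all) or the cAMP response element (1.83%). The window of Efnb2 was rich in G and C, at 77.3% of its bases, and that of Epha5 was not, at 44.7%, with a median of 51.7% over all windows. A match describes letters in a window and says nothing about binding.

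The deposited values are intensities scaled to a median of 100 on every array, and all values below are their log2. All 15 ganglion cell markers passed the level filter, a mean log2 intensity of at least 6.65, the median of all clusters. The mean of these 15 was 8.35, 8.82 and 9.16 on the myr_Set arrays of replicates 1, 2 and 3, 9.12, 8.92 and 8.58 on the wt_Set arrays, and 9.74, 8.997 and 9.30 on the mCherry arrays, so that mCherry replicate 1 was highest. Some markers of other cells differed by replicate number within every group. Vim, an intermediate filament of glia and of connective tissue, had 8.39, 11.42 and 12.04 in myr_Set, 7.84, 11.15 and 11.79 in wt_Set, and 8.60, 11.59 and 12.13 in mCherry. The replicate 1 arrays were thus low for Vim in each group. Pdgfrb, the receptor that marks mural cells and fibroblasts, was at 7.06 to 7.33 on the 3 replicate 1 arrays and at 8.37 to 9.45 on the other 6. The collagen gene Col1a2 was at 5.74 to 6.75 and 7.15 to 8.13 on the same arrays. Vim, Pdgfrb and Col1a2 were singled out after their values were seen, and other markers did not all follow them. Rgs5, a mural cell marker, was also lowest on replicate 1 within each group. So were the microglial markers Tyrobp, Aif1 and Itgam and the retinal patterning factor Nr2f2. The microglial markers Cx3cr1 and C1qa were instead highest on replicate 1 in myr_Set. The endothelial marker Cdh5 was instead highest on replicate 1 within each group, at 6.99, 6.80 and 6.66 in myr_Set, wt_Set and mCherry. The collagen gene Col1a1 was highest on replicate 1 in myr_Set (7.54) and lowest on it in wt_Set (7.44) and mCherry (7.25). The astrocyte and Müller glia markers Gfap, Slc1a3, Rlbp1, Sox9 and S100b were all below the level filter, while the glial markers Aqp4, Pax2 and Mbp passed it. Of the endothelial markers, Cldn5 and Tek were below the filter and Cdh5 passed it, at 6.53 to 6.99 on the 9 arrays. The summed intensity of the 11 glial clusters was 1400 to 5075 in myr_Set, 1117 to 4404 in wt_Set and 1279 to 5348 in mCherry. Vim was the brightest of these clusters on every array, and the range of the sum was mainly that of Vim. The highest level of any other glial cluster was 7.33, that of Pax2 on myr_Set replicate 1. That of the 7 endothelial, mural and fibroblast clusters was 833 to 1334, 714 to 1146 and 624 to 1547, and that of the 15 ganglion clusters 7960 to 14298, 7645 to 13240 and 11730 to 20207. Microglial markers, 7 of 10 past the filter, summed to 1427 to 1712, 1363 to 1719 and 1173 to 1566, lowest on replicate 1 within each group. In each comparison with mCherry 6 of these 7 had differences above 0, opposite in sign to the tested members. The exception was Tyrobp in myr_Set and Aif1 in wt_Set. The median difference over the 7 was 0.10 in myr_Set and 0.11 in wt_Set. The microglial receptor Cx3cr1 had 7.38, 7.17 and 7.18 in myr_Set, 7.12, 7.35 and 7.39 in wt_Set, and 6.32, 6.90 and 6.47 in mCherry. It differed by 0.68 ± 0.19 (SE) in myr_Set and 0.73 ± 0.19 in wt_Set, and the complement gene C1qa by 0.66 ± 0.24 and 0.62 ± 0.24 (limma adjusted p = 0.447 for each, unadjusted p from 0.00438 to 0.0313). Cx3cr1 and C1qa had the smallest unadjusted p of the microglial list in both comparisons and were singled out after their values were seen. On all 3 mCherry arrays Cx3cr1 lay below the 90th percentile of odorant receptor clusters, a mark of background used below (6.89, 7.39 and 7.16). Tyrobp, the brightest microglial cluster, had group means of 8.60 in myr_Set, 8.65 in wt_Set and 8.60 in mCherry. The part of microglial RNA in the differences of the members was not tested. Of the amacrine and horizontal cell markers 4 of 10 passed, and of those of photoreceptors and bipolar cells 1 of 8.

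Detection differed between members. On all 9 arrays every member lay above the median of the 1198 odorant receptor clusters, chemoreceptor genes used as a mark of background; probes differ in brightness, so this is a rough mark. Epha5 lay above the 90th percentile of the odorant receptors on 9 of 9 arrays, Epha4 on 7, Efna5 on 6 and Efnb2 on 4. Ephb2 and Ephb3 did so on 2, Epha6 and Epha7 on 1, and Epha3 and Ephb1 on none. Of the 10 members 8 passed the level filter and were tested, and Epha3 and Ephb1 were not. Of the 1198 odorant receptor clusters 256 also passed this filter, so passing it does not by itself show that a gene was detected.

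**Figure D1:**
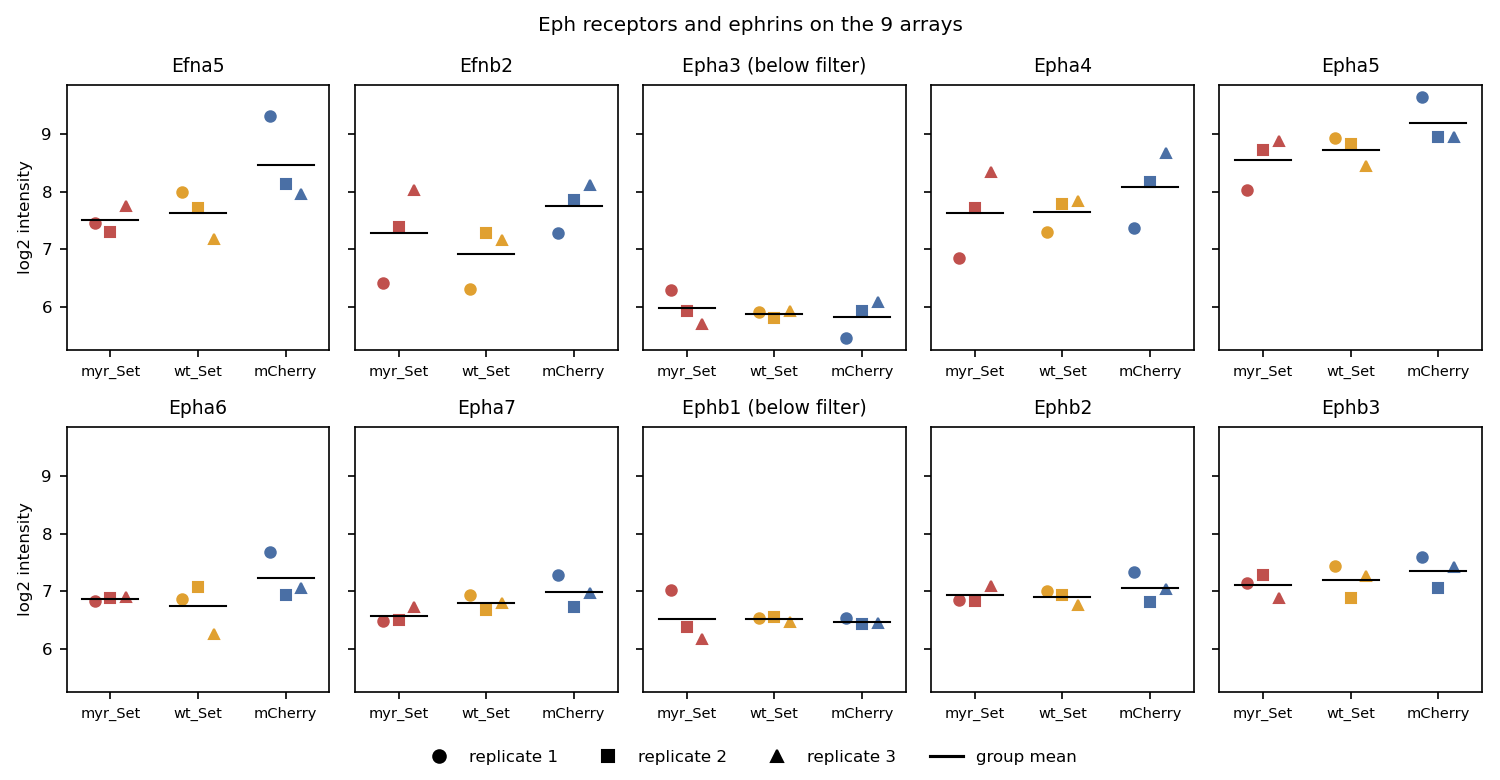
Log2 intensity (vertical axis) of each member on the 9 arrays, by group (horizontal axis), with a symbol for each replicate number and a line at the group mean. Of the 8 tested members 6, all but Efnb2 and Epha4, were highest on mCherry replicate 1, while Efnb2 and Epha4 were lowest on replicate 1 within every group.

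Among the ligands, Efna5 encodes ephrin-A5, a repellent of temporal axons in the superior colliculus that ganglion cells also carry on their own axons. It had 7.45, 7.29 and 7.76 in myr_Set, 7.99, 7.72 and 7.18 in wt_Set, and 9.31, 8.13 and 7.96 in mCherry. No myr_Set array reached the lowest mCherry array, while wt_Set replicate 1 lay just inside the mCherry range. The group levels were 7.50 ± 0.24 in myr_Set, 7.63 ± 0.41 in wt_Set and 8.46 ± 0.74 in mCherry (SD, n = 3 each). The difference from mCherry was -0.96 ± 0.37 (SE) in myr_Set, an intensity ratio of 0.513, and -0.83 ± 0.37 in wt_Set, a ratio of 0.562. Both missed the threshold of 0.05 (limma adjusted p = 0.447 for each), although Efna5 was the only member with an unadjusted p under 0.05, 0.0278 in myr_Set and 0.0493 in wt_Set. Without mCherry replicate 1, the array with the highest Efna5 and the highest ganglion cell markers, the differences were -0.54 in myr_Set and -0.41 in wt_Set. These are bulk samples, in which fewer cells of a type and less RNA per cell cannot be told apart.

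Efnb2 encodes ephrin-B2, a transmembrane ligand of dorsal retina that also marks arteries in other tissues. It had 6.41, 7.39 and 8.03 in myr_Set, 6.31, 7.28 and 7.17 in wt_Set, and 7.29, 7.85 and 8.12 in mCherry. Replicate 1 was the lowest array within each group. The wt_Set arrays lay below the mCherry arrays without overlap, with a difference of -0.83 ± 0.43 (SE), and the myr_Set arrays overlapped them, with -0.48 ± 0.43. Neither passed (limma adjusted p = 0.447 in wt_Set and 0.55 in myr_Set). Without myr_Set replicate 1 the difference of myr_Set from mCherry was -0.05, and without wt_Set replicate 1 that of wt_Set was -0.53. Vim, Pdgfrb and Col1a2 were low on the same 3 replicate 1 arrays, and their part in the levels of Efnb2 was not tested. With replicate 1 of every group left out, a setting added after seeing the data, the wt_Set difference of Efnb2 was -0.76 ± 0.27 (limma adjusted p = 0.51) and the myr_Set difference was -0.28 ± 0.27 (adjusted p = 1).

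Among the EphA receptors, Epha5 forms a nasal to temporal gradient on ganglion cells in the mouse. It had 8.03, 8.72 and 8.87 in myr_Set, 8.92, 8.82 and 8.44 in wt_Set, and 9.64, 8.95 and 8.94 in mCherry. All 3 myr_Set arrays and all 3 wt_Set arrays lay below the lowest mCherry array, by as little as 0.0194 for wt_Set replicate 1. The differences were -0.64 ± 0.29 (SE) in myr_Set and -0.45 ± 0.29 in wt_Set (limma adjusted p = 0.447 and 0.457). Without mCherry replicate 1 they were -0.41 and -0.22, and without myr_Set replicate 1 the myr_Set difference was -0.39. Quantile normalization brought them to -0.35 and -0.11, and cyclic loess to -0.23 and -0.10.

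Epha4 binds ephrins of both classes and is broadly present in the mouse retina. It had 6.85, 7.71 and 8.33 in myr_Set, 7.30, 7.78 and 7.85 in wt_Set, and 7.38, 8.17 and 8.67 in mCherry. As for Efnb2, replicate 1 was the lowest array of each group, and the 3 replicate 1 arrays (6.85 to 7.38) lay below the other 6 (7.71 to 8.67). The differences from mCherry, -0.44 ± 0.42 (SE) in myr_Set and -0.43 ± 0.42 in wt_Set, did not pass (limma adjusted p = 0.571 for each). Leaving out mCherry replicate 1 gave -0.79 and -0.78, leaving out myr_Set replicate 1 gave -0.05 in myr_Set, and leaving out mCherry replicate 3 gave -0.14 and -0.13. With replicate 1 of every group left out, the setting added after seeing the data, the differences were -0.40 ± 0.29 (SE) in myr_Set and -0.61 ± 0.29 in wt_Set.

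Epha6, which is graded alongside Epha5 in the mouse retina, had 6.84, 6.88 and 6.90 in myr_Set, 6.87, 7.08 and 6.26 in wt_Set, and 7.68, 6.94 and 7.05 in mCherry. The myr_Set arrays spanned 0.0539 and lay under every mCherry array. The differences were -0.35 ± 0.26 (SE) in myr_Set and -0.49 ± 0.26 in wt_Set (limma adjusted p = 0.49 and 0.447). Without mCherry replicate 1 they were -0.13 and -0.26. Epha7, a receptor that also shapes the collicular side of the map in the mouse, had 6.48, 6.50 and 6.73 in myr_Set, 6.93, 6.69 and 6.80 in wt_Set, and 7.29, 6.72 and 6.97 in mCherry. Its highest myr_Set array just passed its lowest mCherry array. The differences were -0.42 ± 0.19 (SE) in myr_Set and -0.19 ± 0.19 in wt_Set (limma adjusted p = 0.447 and 0.575). Without mCherry replicate 1 they were -0.28 and -0.0411, and without mCherry replicate 2 the wt_Set difference was -0.32. Epha3, the receptor that is graded across the retina in chick, was below the level filter, with 6.29, 5.93 and 5.72 in myr_Set, 5.92, 5.81 and 5.94 in wt_Set, and 5.47, 5.93 and 6.09 in mCherry. All 3 of its group ranges overlapped, and its mean differed from that in mCherry by 0.15 in myr_Set and 0.06 in wt_Set.

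Ephb2 and Ephb3 spanned the narrowest ranges over the 9 arrays among the members, 0.565 and 0.709. Ephb2, a receptor for ephrin-B ligands that also acts at synapses, had 6.85, 6.84 and 7.10 in myr_Set, 7.00, 6.93 and 6.77 in wt_Set, and 7.33, 6.81 and 7.04 in mCherry. Ephb3, which acts with Ephb2 in dorsal to ventral mapping in the mouse, had 7.15, 7.29 and 6.88 in myr_Set, 7.43, 6.88 and 7.26 in wt_Set, and 7.59, 7.06 and 7.43 in mCherry. The arrays of all 3 groups overlapped for both genes. The differences of Ephb2 were -0.13 ± 0.18 (SE) in myr_Set and -0.16 ± 0.18 in wt_Set, and those of Ephb3 -0.25 ± 0.22 and -0.17 ± 0.22, with limma adjusted p from 0.536 to 0.688. Without mCherry replicate 1 those of Ephb2 were 0.00 and -0.0263 and those of Ephb3 -0.13 and -0.0482, without mCherry replicate 2 those of Ephb2 were -0.26 and -0.29 and those of Ephb3 -0.40 and -0.32, and without wt_Set replicate 2 the wt_Set difference of Ephb3 was -0.0113. Ephb1, the receptor that turns ipsilateral axons away at the chiasm in the mouse, was below the level filter. It had 7.02, 6.38 and 6.18 in myr_Set, 6.54, 6.55 and 6.48 in wt_Set, and 6.54, 6.44 and 6.45 in mCherry. The arrays of wt_Set and mCherry lay within a narrow band, and those of myr_Set on either side of it. Its mean differed from that in mCherry by 0.05 in myr_Set and by 0.04 in wt_Set. Zic2, the transcription factor that drives Ephb1 in those ipsilateral cells, was also below the filter, at 5.86 ± 0.16 in myr_Set, 5.96 ± 0.06 in wt_Set and 6.02 ± 0.06 in mCherry (SD, n = 3 each).

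In myr_Set against mCherry, all 8 tested members had negative differences, from -0.96 to -0.13, with Epha3 and Ephb1, not tested, above 0, and none passed limma's adjusted p of 0.05. No cluster on the array did, 0% of 18343, with a smallest adjusted p of 0.332. At an unadjusted p under 0.05 there was 1 member of 8, against 9.79% of all tested clusters. Differences below 0 were found in 63.9% of tested clusters. The median difference was -0.43 over the 8 members and -0.16 over all tested clusters, and 7 of the 8 members lay below that of all clusters. Brighter clusters were lower as a whole. With a level filter at the 75th percentile of cluster means, the median was -0.36 over all clusters. It was -0.64 over the 3 members past that filter, Epha4, Epha5 and Efna5. The arrays of Efna5, Epha5 and Epha6, 3 of the 8 members, were lower in myr_Set with no overlap, against 6.85% of tested clusters.

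In wt_Set against mCherry, all 8 tested members were again negative, from -0.83 to -0.16, with Epha3 and Ephb1 again above 0, and none passed. Here too 0% of clusters passed, with a smallest limma adjusted p of 0.447. At an unadjusted p under 0.05 there was 1 member of 8, against 10.2% of all tested clusters, and differences below 0 were found in 65.5% of clusters. The median difference was -0.44 over the 8 members and -0.18 over all tested clusters, with 6 of the 8 below that of all clusters. With the level filter at the 75th percentile, the median was -0.36 over all clusters and -0.45 over the 3 members past it. Efnb2 and Epha5, 2 of the 8, had no overlap between wt_Set and mCherry, a share near the 26.4% of all tested clusters that were lower in this way. Both comparisons use the same 3 mCherry arrays, so their negative signs are not separate observations. Without mCherry replicate 1 the members' median was -0.34 in myr_Set and -0.24 in wt_Set, and this array held the highest level of 6 of the 8 tested members.

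**Figure D2:**
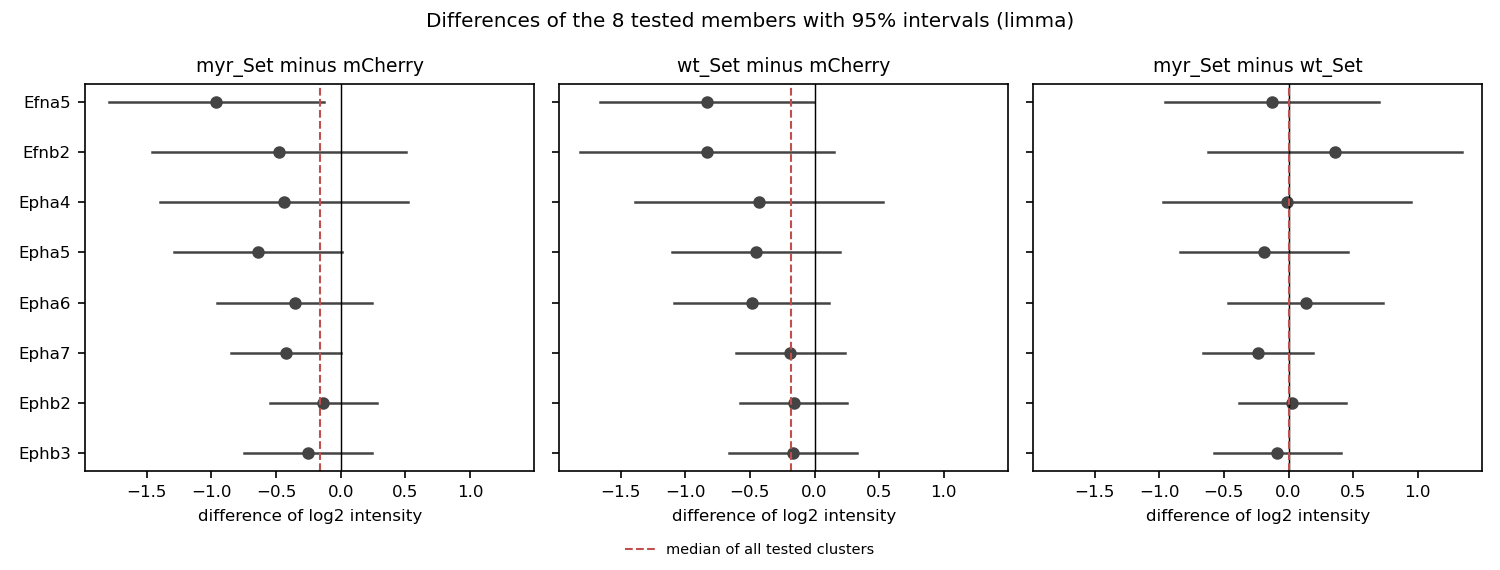
Difference of log2 intensity (horizontal axis) for the 8 tested members (vertical axis) in each comparison, with bars for the 95% interval of the limma fit and a dashed line at the median of all tested clusters. Points lie at or below -0.13 in both comparisons with mCherry, and around 0 between the forms of Set.

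Between the forms of Set-β, myr_Set against wt_Set, 5 of the 8 differences were negative, against 48.5% of all tested clusters, and 3 positive, from -0.24 for Epha7 to 0.36 for Efnb2. The limma adjusted p was 1 for every member, 0% of clusters passed, and 1.13% of clusters had an unadjusted p under 0.05, among them none of the members. The arrays of these groups overlapped for all 8 members, and did not overlap for 4.39% of tested clusters. The median was -0.05 over the members and 0.01 over all tested clusters. The 95% intervals ran from -0.63 to 1.34 for Efnb2, from -0.97 to 0.95 for Epha4 and from -0.96 to 0.70 for Efna5. For Ephb2, the member with the smallest error, the interval ran from -0.39 to 0.44. Each of these intervals held differences of either sign.

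**Figure D3:**
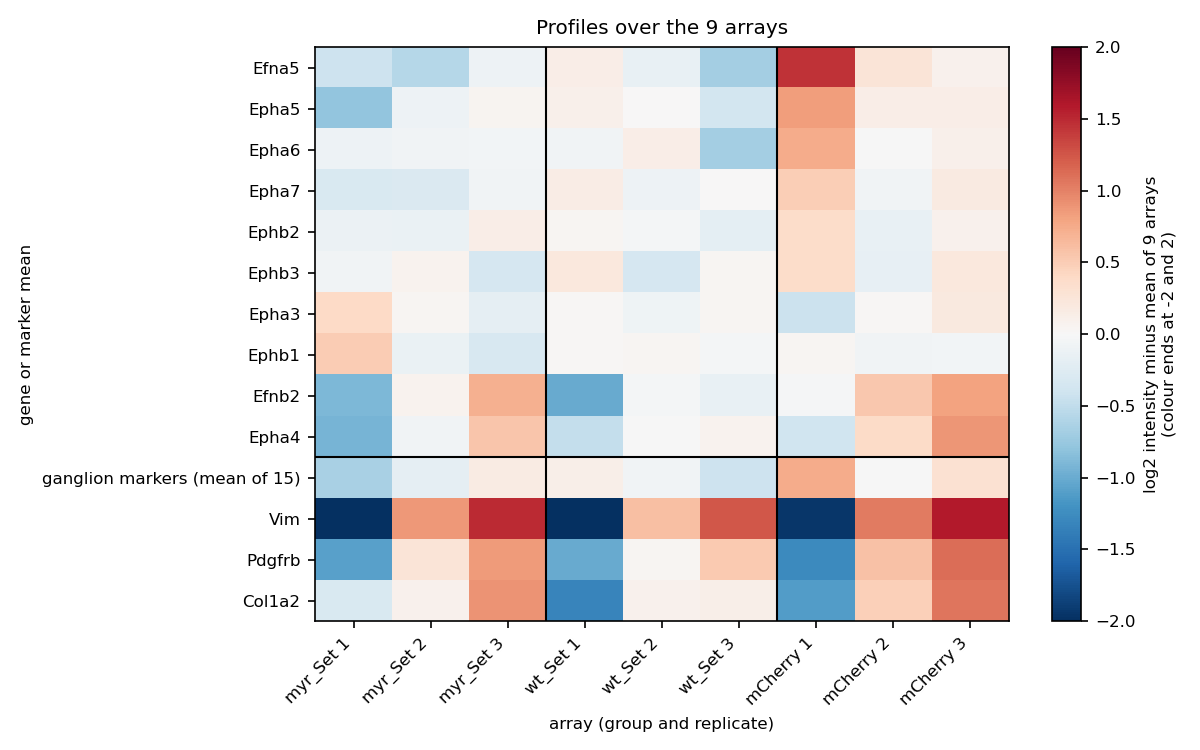
Log2 intensity minus its mean over the 9 arrays (colour, ending at -2 and 2) for the 10 members, the mean of 15 ganglion cell markers, and Vim, Pdgfrb and Col1a2 (vertical axis), by array (horizontal axis). Efna5, Epha5 and Epha6 are reddest on mCherry replicate 1, where the ganglion cell markers are highest, and Efnb2 and Epha4 are lowest within each group on the replicate 1 arrays, where Vim, Pdgfrb and Col1a2 are lowest.

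The members fell into different profiles over the arrays. The likeness of 2 profiles was measured as the root mean square distance of log2 values over the 9 arrays, each less its own mean, among 10713 other clusters with 1 symbol past the filter. Of all these clusters, the profile of Epha4 was closest to Rps19, a ribosomal protein (distance 0.0942, against a median of 0.518 over all clusters), and that of Efnb2 to Rpl7, another ribosomal protein (0.135, against 0.559). Among the members Epha4 and Efnb2 were each other's nearest, at 0.244. Epha5 was closest to Syn1, the synaptic vesicle protein synapsin (0.0763, against 0.376), and Efna5 to Nmnat2, an enzyme that keeps axons alive (0.162, against 0.561). Among the members the nearest to Efna5 was Epha5, at 0.316. The others were closest to Mroh4 (Epha6, 0.0675), Zfp597 (Epha7, 0.0728), Sipa1l2 (Ephb2, 0.0478) and Mtmr11 (Ephb3, 0.0928). All profiles come from the same 9 arrays, which differed in spread of signal and in marker levels, and each named gene was the closest found in a search over all those clusters.

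The other Eph and ephrin genes past the filter had values above 0 in both comparisons with mCherry. Of 12 symbols 10 had a cluster, and the 3 past the filter were Efnb3, a transmembrane ephrin, Epha8 and Efna2. Efnb3 differed by 0.40 ± 0.21 (SE) in myr_Set and 0.27 ± 0.21 in wt_Set, Epha8 by 0.09 ± 0.18 and 0.15 ± 0.18, and Efna2 by 0.03 ± 0.20 and 0.07 ± 0.20. None passed in either direction (limma adjusted p from 0.447 to 0.936). Efna4, below the filter, had 6.90, 6.59 and 6.47 in myr_Set, 7.00, 6.57 and 6.73 in wt_Set, and 6.33, 6.33 and 6.36 in mCherry, and was named after its values were seen.

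Genes that carry the signal inward from Eph receptors were mostly negative as well. Of 34 clusters 32 were tested, and none passed in either direction. In myr_Set 29 were below 0 with a median of -0.40, against 63.9% and -0.16 over all tested clusters. In wt_Set 30 were below 0 with a median of -0.49, against 65.5% and -0.18. Among the brighter clusters past the 75th percentile filter, the median over all clusters was -0.36 in both comparisons. Src, a kinase recruited by Eph receptors, had 7.24 ± 0.12 in myr_Set, 7.20 ± 0.03 in wt_Set and 7.72 ± 0.29 in mCherry (SD, n = 3 each). The adaptor Nck1 differed by -0.56 ± 0.23 (SE) in myr_Set and -0.60 ± 0.23 in wt_Set, the exchange factor Vav3, which acts in receptor uptake, by -0.62 ± 0.27 in myr_Set, and the kinase Yes1 by -0.97 ± 0.35 in wt_Set. The limma adjusted p was 0.447 for each of these. Between the forms of Set the smallest unadjusted p in this list was that of Yes1, at 0.73 ± 0.35 (adjusted p = 1), then Arhgef15 at -0.17 ± 0.21 and Abl1 at 0.17 ± 0.22.

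Genes of ephrin reverse signalling and ephrin shedding gave 10 tested clusters of 12, with 10 below 0 in myr_Set (median -0.48), 9 in wt_Set (median -0.49) and none passing. Over all tested clusters the shares below 0 were 63.9% and 65.5%, and the medians -0.16 and -0.18. Past the 75th percentile filter, the medians over all clusters were -0.36 in both. Pick1 and Grip1, which bind the ends of ephrin-B ligands, differed by -0.69 ± 0.28 (SE) and -0.57 ± 0.32 in myr_Set, and by -0.57 ± 0.28 and -0.61 ± 0.32 in wt_Set. The adhesion molecule L1cam differed by -0.78 ± 0.36 in myr_Set, and Ntrk2, the receptor of BDNF, by -0.53 ± 0.25 in wt_Set. Their limma adjusted p was 0.447. Between the forms of Set, Rgs3 was at -0.14 ± 0.16, Ngfr, a partner of ephrin-A in axons, at 0.09 ± 0.14 and Ntrk2 at 0.14 ± 0.25 (adjusted p = 1).

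Of the factors that pattern the retina and set Eph and ephrin gradients, 11 of 22 clusters were tested, with 9 below 0 in myr_Set (median -0.30), 11 in wt_Set (median -0.21) and none passing. Meis2 had 6.84 ± 0.32 in myr_Set, 6.62 ± 0.34 in wt_Set and 7.40 ± 0.21 in mCherry (SD, n = 3 each, limma adjusted p = 0.447 in both comparisons). Pax6, which ganglion and amacrine cells share, differed by -0.85 ± 0.40 (SE) in myr_Set and -0.69 ± 0.40 in wt_Set, Hmx1, a factor of nasal retina, by -0.36 ± 0.18 in myr_Set, and Nr2f1 by -0.46 ± 0.27 in wt_Set. Between the forms of Set, Vax2, the ventral factor upstream of the EphB gradient, was at 0.32 ± 0.19, and the dorsal factors Tbx2 and Tbx3 at -0.42 ± 0.29 and 0.29 ± 0.20 (limma adjusted p = 1 for each). The 15 ganglion cell markers had medians of -0.50 in myr_Set and -0.51 in wt_Set, with 15 of 15 below 0 and none passing. Beside the patterning factors and these markers, all tested clusters had 63.9% and 65.5% below 0, with medians of -0.16 and -0.18. Past the level filter at the 75th percentile, where clusters are brighter, the median over all clusters was -0.36 in both comparisons. Many of the ganglion cell markers were bright, and the part of brightness in the medians of these lists was not tested. The lowest unadjusted p among the ganglion cell markers were those of Pou4f3 at -0.60 ± 0.23 (SE), Ebf3 at -0.67 ± 0.27 and Rbpms at -1.01 ± 0.44 in myr_Set (limma adjusted p = 0.447 for each). The part of the ganglion cell markers in the differences of the members was not tested.

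**Figure D4:**
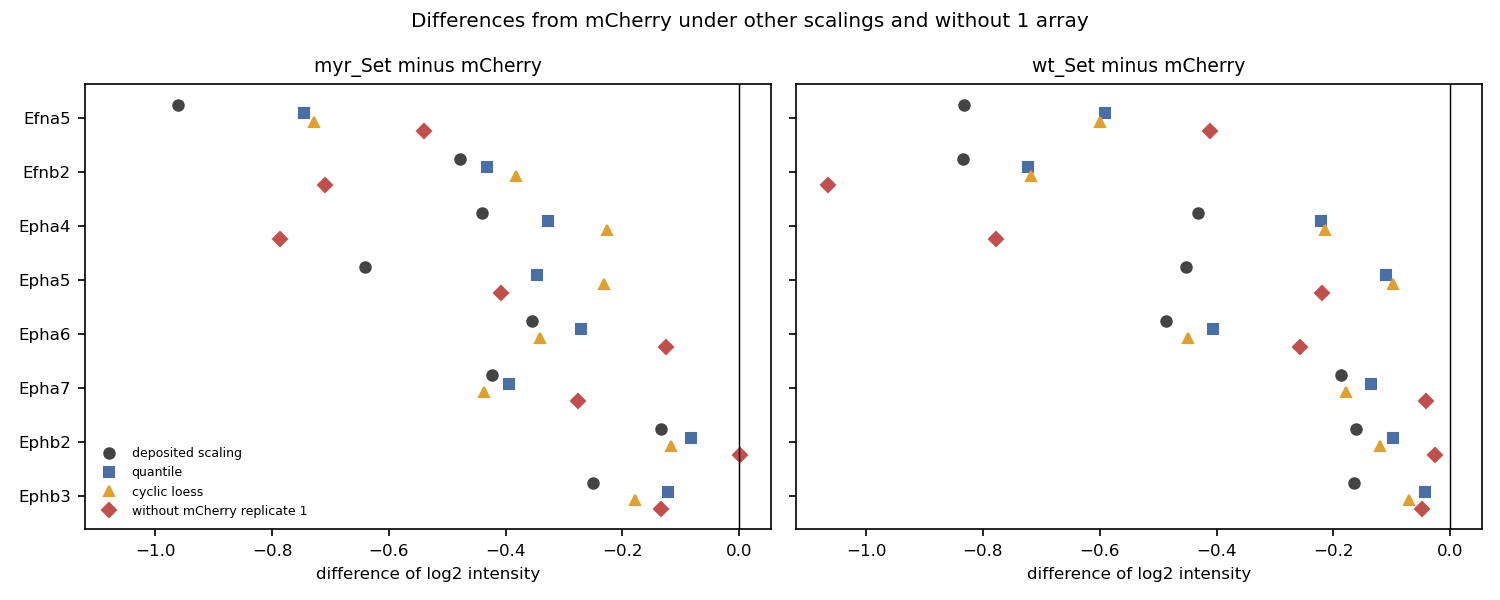
Difference of log2 intensity from mCherry (horizontal axis) for the 8 tested members (vertical axis) with the deposited scaling, quantile normalization, cyclic loess normalization and the deposited scaling without mCherry replicate 1. Normalization moved Epha5 in wt_Set to -0.11 and -0.10, and leaving out mCherry replicate 1 moved Efna5 to -0.54 in myr_Set and -0.41 in wt_Set.

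Other scalings of the arrays moved the medians of the members and of all tested clusters toward 0, but not every member moved in this way. As deposited, the span of log2 intensity between the 10th and 90th percentiles of all clusters was 3.82 to 4.46 in myr_Set, 4.12 to 4.21 in wt_Set and 4.29 to 4.54 in mCherry, so that every wt_Set array and 2 of the 3 myr_Set arrays had a narrower span than any mCherry array. Quantile normalization gives all arrays 1 distribution. With it the members' median was -0.34 in myr_Set and -0.18 in wt_Set, with all tested clusters at -0.03 in both, and with cyclic loess it was -0.29 and -0.20, with all clusters at -0.01 and -0.03. Under both normalizations all 8 members remained below 0 and below the median of all clusters in both comparisons. Efna5 was at -0.75 and -0.73 in myr_Set and at -0.59 and -0.60 in wt_Set, and Efnb2 at -0.43 and -0.38 in myr_Set and at -0.72 in wt_Set under both. Epha7 in myr_Set was at -0.39 with quantile normalization and -0.44 with cyclic loess, against -0.42 as deposited.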

How the data were processed

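The 9 samples were 1-colour Affymetrix rat gene arrays. Per the submitters' processing notes, Affymetrix Expression Console and RMA (background correction, normalization between arrays and summary of probes) made the values, and per the labels' design text the authors normalized each sample to its median. The deposited intensity values are linear, with a median of 100 on each array. The versions, and the build behind the array, were not stated in the sources used here. The platform annotation pairs 18511 clusters with 1 symbol, 575 with several and 17599 with none. Control clusters stayed in.

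Intensities were log2-transformed and fitted as 3 group means over all 9 arrays with limma 3.58.1 in R 4.3.3 (lmFit, eBayes, two-sided, 6 residual and 2.82 prior degrees of freedom) on the 18343 clusters with a mean log2 of at least 6.65, with Benjamini-Hochberg adjustment over all of them. The fit was tested on simulated data. The members and lists were chosen with earlier results of these data known. Every member is named, and per pathway list and comparison up to 3 genes of smallest p. Cell marker lists had no such rule, and markers named with values were chosen after these were seen. An array has no read depth, so precision is limited by how many arrays there were. The labels do not say what arrays of the same replicate number share.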

Additional observations from a re-analysis of the deposited data

How the results depend on the processing

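Alternatives were the replicate block, 2 normalizations, 2 level filters, a fit of 2 groups, array weights and leaving out arrays, plus gene-by-gene weights and leaving out replicate 1 of each group, both chosen after seeing the data. With the replicate number as a block, 0 members and 0 clusters passed in every comparison, as without it, and the members' medians stayed at -0.43 for myr_Set and -0.44 for wt_Set relative to mCherry and at -0.05 for myr_Set relative to wt_Set. The block lowered the error of Epha4 to 0.216 (unadjusted p = 0.0811 in myr_Set and 0.0862 in wt_Set, limma adjusted p = 0.436 and 0.428) and that of Efnb2 to 0.22 (0.0661 and 0.00668, adjusted p = 0.436 and 0.428). Both were below mCherry in 3 of 3 same-numbered pairs in each comparison with mCherry. So were Epha5, Epha7 and Efna5, and the share of all clusters lower in this way was not counted. Deviations from group means correlated over 0.1 in 5 of 9 same-numbered and 6 of 18 other pairs of arrays, with medians of 0.135 and -0.118. Of the 9 arrays 5 correlated best with their own number. The labels do not say what the numbers share, and they were not taken as pairs in the main fit. Vim, Pdgfrb, Col1a2, Epha4 and Efnb2 were, however, lowest on replicate 1 of every group. Planned array weights, whose estimation stopped before its tolerance, called 5903 clusters in myr_Set against mCherry, 32.2% of those tested, with 2 of 8 members, or 25.0%, Epha7 (-0.46, limma adjusted p = 0.0163) and Efna5 (-0.92, adjusted p = 0.0178), and 1270 clusters with no member between the forms of Set. Gene-by-gene weights called 0 in each. The cause was not tested. No other setting called a cluster.

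The members' median in wt_Set against mCherry moved to -0.18 with quantile normalization, -0.20 with cyclic loess, -0.31 with array weights and -0.35 with gene-by-gene weights, and ran from -0.50 to -0.24 with arrays left out. In myr_Set against mCherry it ran from -0.65 to -0.19 with arrays left out, and was -0.19 without replicate 1 of every group, and between the forms of Set from -0.16 to 0.14. Between the forms of Set signs turned with array weights and gene-by-gene weights for Epha4 (0.0215 and 0.0165), Ephb2 (-0.0672 and -0.0325) and Ephb3 (0.18 and 0.10). With arrays left out, the same comparison ran from -0.36 to 0.38 for Epha4, -0.35 to 0.16 for Epha5, -0.11 to 0.30 for Epha6, -0.0557 to 0.12 for Ephb2, -0.24 to 0.0347 for Ephb3, -0.35 to 0.0764 for Efna5 and -0.0193 to 0.79 for Efnb2. Ephb2 in myr_Set against mCherry ran from -0.26 to 0.0391. The other differences of the 8 tested members from mCherry kept their negative sign in each alternative run. Filter settings change how many members are tested: 10 with none, of which 8 were below 0 in both comparisons with mCherry and Epha3 and Ephb1 above it, and 3 at the 75th percentile.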
